A study of Saccharomyces cerevisiae with 8 samples.

Results

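Within the diploid hybrid of the yeast strains S96 and SK1, the 2 parental alleles of each transcript were measured against each other by RNA sequencing. The transcripts are the 7263, of 7272 annotated, that have 1 row of counts for the S96 allele and 1 for the SK1 allele, and they were followed in the 2 hybrid cultures, hybrid A and hybrid B, of the 4 RNA libraries of the study. A ratio is given throughout as the log2 of SK1 over S96 read pairs, so that a positive value has the SK1 allele higher. Of the 7263 transcripts, 6609 were tested, because they had reads of both alleles and a corrected mean of at least 10 read pairs per allele and library.

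Both hybrids carry 1 complete genome of the laboratory strain S96 and 1 of SK1, a strain known for rapid and efficient sporulation. They were grown in YPD, a rich glucose medium, with no further treatment, and marker genes of the parent strains are not given in the sources used here. Total RNA was sequenced with its strand kept, and read pairs were assigned to the allele whose genome they matched better. The remaining 2 RNA libraries are pools of haploid spores of this cross and enter alternative fits only. These are the fit of all RNA libraries and the fits with 1 hybrid left out.

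In a hybrid nucleus, the 2 alleles of a gene meet the same transcription factors, the same RNA decay machinery and the same medium. A difference between their RNA levels is therefore classically read as a difference in cis, one that lies on the chromosome that carries the allele, such as a changed binding site in a promoter or a changed element in the RNA itself. Signals that diffuse through the cell reach both alleles and cancel in the ratio.

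The hybrids yielded 45279970 and 48120351 allele-specific read pairs in transcripts, of which 49.99% and 49.93% were of the SK1 allele, and the median tested transcript had 958 read pairs per allele and library. STE2, the receptor for alpha-factor that diploid cells repress, had 232 and 399 read pairs of both alleles in hybrids A and B. Each culture was sequenced in 3 lanes, and the lanes did not behave alike. Lanes 6 and 7 of a culture differed by no more than counting noise (mean chi-square per transcript 1.05 in hybrid A and 1.04 in hybrid B). Lanes 6 and 7 together differed from lane 8 of the same culture much more (739 and 729), and over 5307 well covered transcripts the allele ratios of these 2 sets of lanes had a Spearman correlation of 0.278 in hybrid A and 0.242 in hybrid B, with no test made. Between the 2 hybrids that correlation was 0.336 for lanes 6 and 7 and 0.303 for lane 8. Lanes of 1 culture thus agreed no better than the 2 cultures, and the labels give no reason. The lanes of a culture were summed and counted as 1 replicate, so the tests rest on 2 cultures and their p-values measure the spread between these 2 only. Leading results are also given for lanes 6 and 7 and for lane 8 apart, and the 2 hybrids with these 2 sets of lanes make the 4 lane sets named below.

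A transcript was called imbalanced where edgeR's quasi-likelihood test gave a p-value under 0.2 after Benjamini-Hochberg adjustment, the fold was above 1.5 and both hybrids pointed one way. It was called for 732 transcripts, 11.1% of those tested. The S96 allele was the higher one in 445 (6.73%) and the SK1 allele in 287 (4.34%). The median absolute ratio was 1.16 among called transcripts and 0.32 among all tested ones, and the median ratio of all tested ones was -0.03. In 574 of the 732, each hybrid by itself was beyond 1.5-fold, and 184 were beyond 4-fold, with S96 higher in 118 of them. All 4 lane sets pointed one way in 614 of the called transcripts (83.9%). The call itself requires both hybrids to point one way and uses these reads, so this share is a description.

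**Figure D1:**
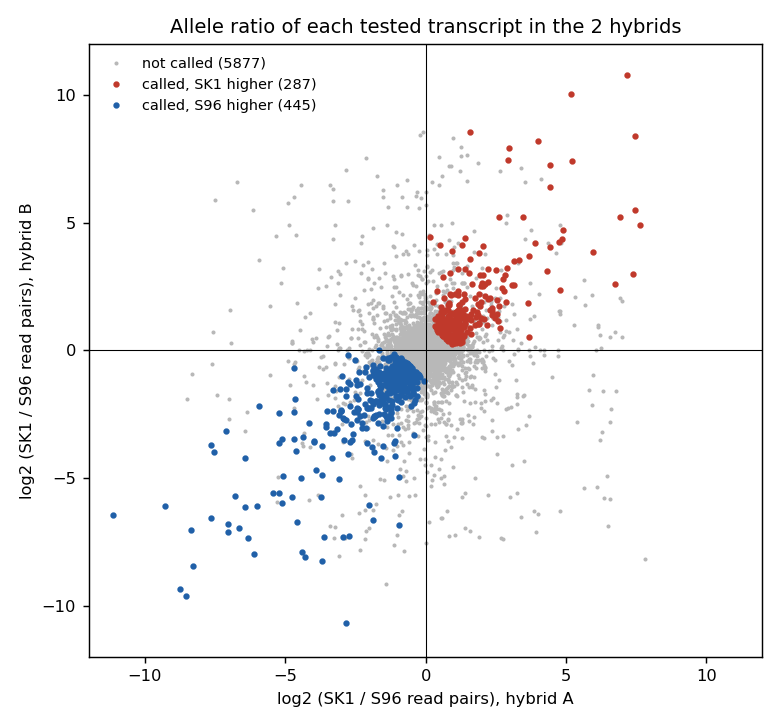
Each point is 1 of 6609 tested transcripts, with its log2 ratio of SK1 to S96 read pairs in hybrid A on the horizontal axis and in hybrid B on the vertical axis. The 287 transcripts called with SK1 higher lie in the upper right quadrant, the 445 called with S96 higher lie in the lower left, and most transcripts not called lie near 0.

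Lanes 6 and 7 alone gave 603 calls among 6350 tested transcripts, and lane 8 alone gave 586 among 6382. These 2 fits share no read. Of the 6190 transcripts tested in both, 599 and 574 were called, and 250 were called in both, which is 41.7% of the first and 43.6% of the second. In 247 of these 250 the direction was the same, with S96 higher in 156 and SK1 higher in 91. All 247 are among the 732 calls, and they are described below as called in both lane fits.

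The largest ratios among coding transcripts with reads of both alleles were found in genes of many functions. TEF1, which encodes the elongation factor EF-1 alpha, had 24 SK1 and 10520 S96 read pairs in hybrid A and 16 and 10816 in hybrid B (log2 -9.05 ± 0.21 SE, adjusted p = 1.77e-18). MRM1, a ribose methyltransferase of mitochondrial ribosomal RNA, had 30 and 9509 in hybrid A and 24 and 8547 in hybrid B. In both genes every lane set had under 1 SK1 read for each 100 S96 reads, so the alleles did not overlap in any library. TEF1 has a duplicate, TEF2, that is 99.9% identical, so its ratio is uncertain. With the reads of TEF1 and TEF2 added together, the ratio was -0.14 in hybrid A and -0.10 in hybrid B. On the SK1 side CTR9, a component of the Paf1 complex that travels with RNA polymerase II, had 3746 SK1 and 100 S96 read pairs in hybrid A and 4372 and 25 in hybrid B (log2 6.15 ± 0.37 SE). HAT2, a subunit of a histone acetyltransferase, had 2875 and 325 and then 2443 and 412, a ratio of 2.86. LDB18, a component of dynactin, stood at 3.69 and TGL2, a mitochondrial triacylglycerol lipase, at 3.71, both with SK1 higher in all 4 lane sets.

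Some of the largest ratios spread widely between lane sets. COS12, an endosomal protein gene 2.78 kb from the left end of chromosome VII, had 157 and 1 read pairs in hybrid A and 282 and 46 in hybrid B, and its SK1 allele was the lower one in lanes 6 and 7 of hybrid B. It was the exception among the 24 genes with the largest called ratios under the limits above, and the other 23 kept 1 direction in all 4 lane sets. MTL1, a sensor of the cell wall integrity pathway, ranged from -10.05 to -2.13 over the lane sets, all of them with S96 higher.

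**Figure D2:**
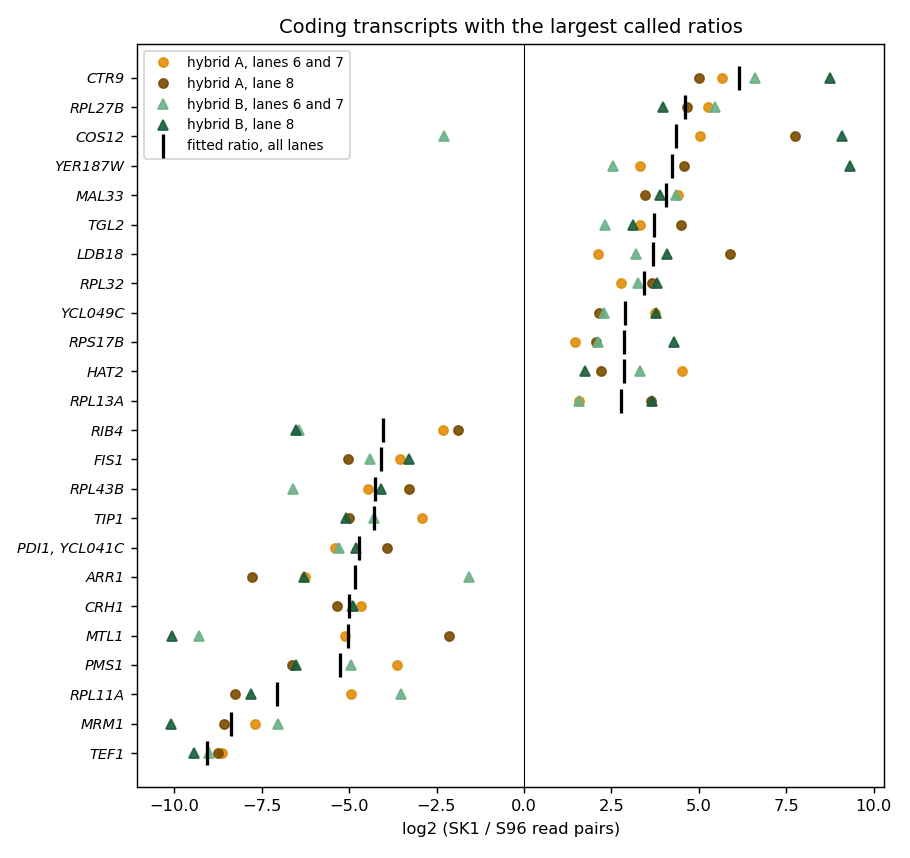
The 24 coding transcripts with the largest called ratios, 12 in each direction, are listed by name, with the log2 ratio of SK1 to S96 read pairs on the horizontal axis. Circles are hybrid A and triangles hybrid B, light for lanes 6 and 7 and dark for lane 8, and the black bar is the fitted ratio, which is -9.05 for TEF1 and 6.15 for CTR9. COS12 is the gene with a lane set on the other side of 0.

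Several called genes had nearly the same ratio in every lane set. The promoters of 9 called genes are printed here because their alleles differed steadily or by much, and because the imbalance of a gene in cis is classically sought there. Each line holds the 200 bases before the annotated transcript start in the S288c reference, read 5′ to 3′ from NCBI's R64 assembly, with the positions of SNPs between S96 and SK1 that are listed in the hybrid DNA files in capitals. Insertions and deletions are not in that list, and the SK1 bases were not used here.
HIS5, chrIX:142657-142856, plus strand: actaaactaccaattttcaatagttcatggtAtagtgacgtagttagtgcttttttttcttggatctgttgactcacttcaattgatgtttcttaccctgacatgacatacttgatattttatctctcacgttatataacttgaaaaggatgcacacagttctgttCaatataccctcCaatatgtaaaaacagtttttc
ASN1, chrXVI:822283-822482, plus strand: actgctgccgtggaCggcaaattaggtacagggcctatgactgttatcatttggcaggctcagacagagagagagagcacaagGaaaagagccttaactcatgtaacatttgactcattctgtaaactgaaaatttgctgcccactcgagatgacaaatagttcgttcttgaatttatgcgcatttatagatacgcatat
FET3, chrXIII:388569-388768, plus strand: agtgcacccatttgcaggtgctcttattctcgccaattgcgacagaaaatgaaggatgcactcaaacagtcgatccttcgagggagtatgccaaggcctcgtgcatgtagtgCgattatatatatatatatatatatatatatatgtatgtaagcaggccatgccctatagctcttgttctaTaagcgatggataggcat
FPR4, chrXII:1030600-1030799, plus strand: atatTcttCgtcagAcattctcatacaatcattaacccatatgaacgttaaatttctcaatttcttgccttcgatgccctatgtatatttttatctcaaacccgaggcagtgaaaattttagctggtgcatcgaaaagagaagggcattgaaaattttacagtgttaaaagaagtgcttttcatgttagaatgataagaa
MAL33, chrII:800280-800479, plus strand: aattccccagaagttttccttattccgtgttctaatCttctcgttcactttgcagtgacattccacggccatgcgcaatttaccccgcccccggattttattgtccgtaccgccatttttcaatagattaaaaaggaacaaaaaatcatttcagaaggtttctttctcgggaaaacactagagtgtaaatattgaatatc
RPL27B, chrIV:1401493-1401692, plus strand: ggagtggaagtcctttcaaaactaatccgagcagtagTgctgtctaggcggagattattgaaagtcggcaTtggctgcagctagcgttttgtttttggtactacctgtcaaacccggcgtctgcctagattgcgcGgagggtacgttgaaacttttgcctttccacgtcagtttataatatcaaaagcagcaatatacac
RPL39, chrX:75697-75896, plus strand: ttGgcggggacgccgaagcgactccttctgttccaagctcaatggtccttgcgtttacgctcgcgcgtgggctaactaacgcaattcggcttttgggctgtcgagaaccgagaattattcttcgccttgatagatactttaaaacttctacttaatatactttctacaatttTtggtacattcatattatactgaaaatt
RPL32, chrII:45345-45544, plus strand: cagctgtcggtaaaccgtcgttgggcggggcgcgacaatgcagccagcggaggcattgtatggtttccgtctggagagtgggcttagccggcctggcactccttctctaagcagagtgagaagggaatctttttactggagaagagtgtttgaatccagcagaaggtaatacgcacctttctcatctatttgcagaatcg
CRH1, chrVII:878424-878623, minus strand: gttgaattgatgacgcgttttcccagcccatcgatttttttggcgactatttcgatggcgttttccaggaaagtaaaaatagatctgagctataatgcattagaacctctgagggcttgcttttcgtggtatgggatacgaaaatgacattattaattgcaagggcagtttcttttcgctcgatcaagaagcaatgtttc

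These windows hold from 0 listed SNPs, in RPL32 and CRH1, to 3, in HIS5, FPR4 and RPL27B. Over all coding transcripts, the number of listed SNPs in the 500 bases before the start did not set called transcripts far apart from the rest. With no such SNP 50 of 456 were called, and with 7 or more 75 of 597 (12.6%).

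FPR4, a nuclear prolyl isomerase that acts on histones, was among the called coding transcripts with the highest allele-specific read counts. It had 29856 SK1 and 14912 S96 read pairs in hybrid A and 46665 and 22302 in hybrid B (log2 1.03 ± 0.07 SE, adjusted p = 1.21e-10). UTR1, an NADH kinase, had 25604 and 55287 in hybrid A and 21143 and 42161 in hybrid B, a ratio of -1.05. YNL190W, a hydrophilin needed to survive drying, had 18671 and 36555 and then 18479 and 38637, a ratio of -1.02. The 2 hybrids lay close together in each of these genes, and the alleles did not overlap. Among other called transcripts with high read counts, KRS1, the lysyl-tRNA synthetase of the cytosol, had a ratio of -0.73. PSA1, which makes GDP-mannose, had one of -0.71, and TIM9, a chaperone of the mitochondrial intermembrane space, one of 0.76. SMT3, the yeast SUMO, was called at -0.70, but in lanes 6 and 7 alone its ratio was 0.18, with SK1 on the higher side.

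Called transcripts were counted in 50 lists of genes of known function and set beside the 11.1% of all tested transcripts. The counts are descriptions, and no list was tested as a whole.

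**Figure D3:**
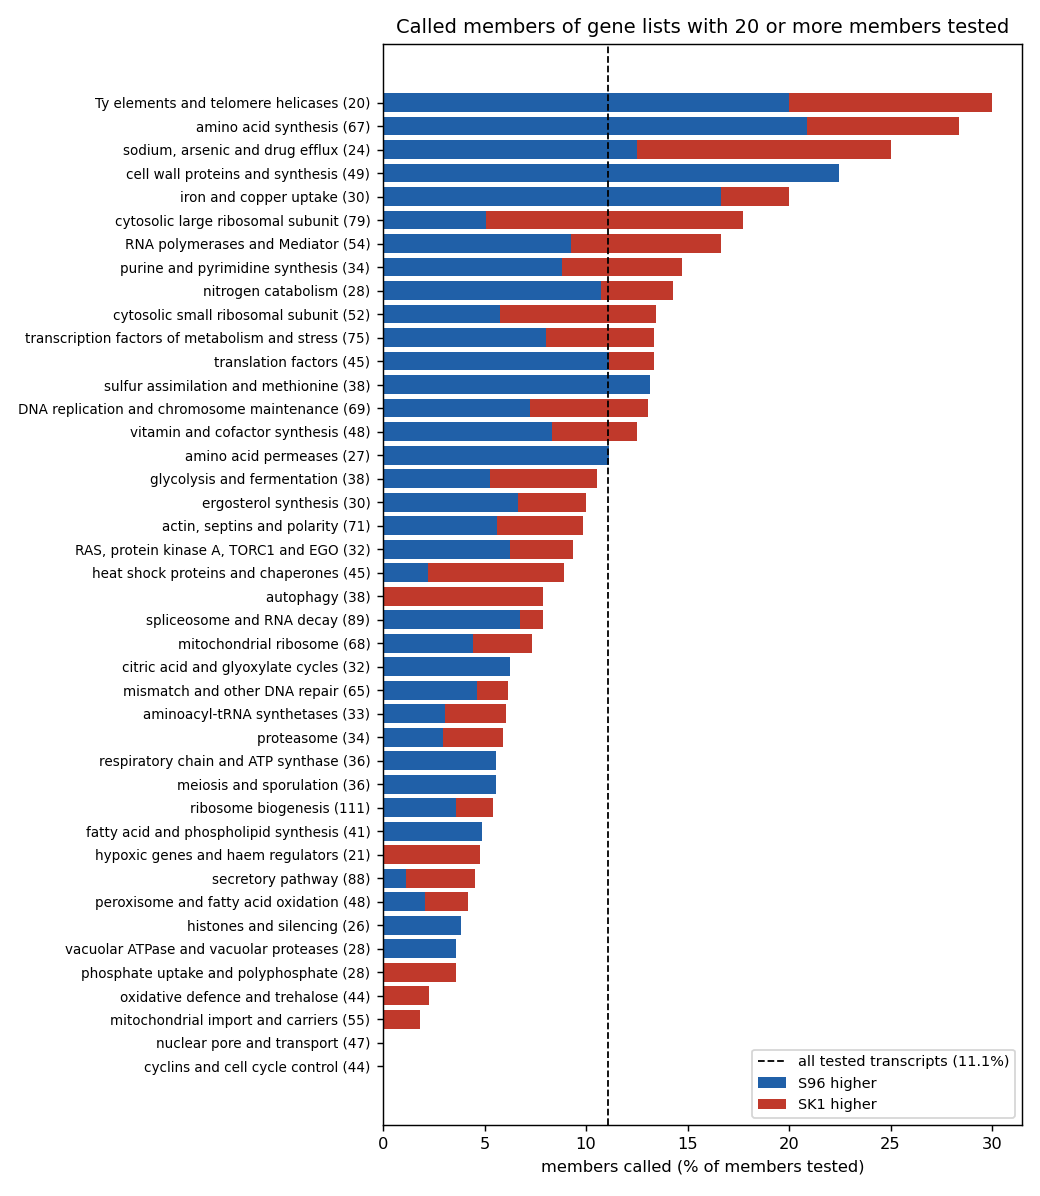
Bars give the percentage of tested members that were called in each gene list with 20 or more tested members, split into S96 higher in blue and SK1 higher in red, with the number tested in brackets. The dashed line marks the 11.1% of all tested transcripts. Amino acid synthesis reaches 28.4%, the cell wall list reaches 22.4% with S96 higher in every called member, and the nuclear pore and cyclin lists are at 0.

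Amino acid synthesis had 19 of 67 members called (28.4%), with S96 higher in 14 and SK1 higher in 5, and the median ratio of all 67 was -0.14. HIS5 and HOM3 had the largest ratios, both with SK1 higher. HIS5, the histidinol-phosphate aminotransferase of histidine synthesis, had 3061 SK1 and 624 S96 read pairs in hybrid A and 3465 and 845 in hybrid B (log2 2.16 ± 0.21 SE, adjusted p = 1.45e-07). HOM3, the aspartate kinase that opens the route to threonine and methionine, had 2690 and 409 in hybrid A and 3043 and 556 in hybrid B, a ratio of 2.58. The alleles of both genes were apart in each of the 4 lane sets. ASN1, an asparagine synthetase, lay on the other side with 6799 SK1 and 14705 S96 read pairs in hybrid A and 8033 and 17506 in hybrid B (log2 -1.12 ± 0.09 SE, adjusted p = 1.00e-08). Its 4 lane sets lay between -1.13 and -1.10.

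The aromatic branch held ARO8, which transaminates phenylalanine and tyrosine, with 3040 and 13069 read pairs in hybrid A and 4528 and 12438 in hybrid B, a ratio of -1.78. Its relative ARO9 was called at -0.96, ARO2, the chorismate synthase, at -0.63, and ARO3, which catalyses the first step of the pathway, on the SK1 side at 0.70. The branched-chain route was called at BAT1, the mitochondrial aminotransferase (-0.92), ILV6, the regulatory subunit of acetolactate synthase (-0.71), ILV3, the dihydroxyacid dehydratase (-0.70), and LEU9, an isopropylmalate synthase (-0.64), all with S96 higher. BAT2, the cytosolic aminotransferase of the same step as BAT1, was called on the other side, with 1724 SK1 and 911 S96 read pairs in hybrid A and 1955 and 1057 in hybrid B (0.90). Its lane sets ranged from -0.03, in lanes 6 and 7 of hybrid A, to 1.62, in lane 8 of hybrid A. Entry of nitrogen was represented by GDH1, the NADP-dependent glutamate dehydrogenase (-0.59), and GLT1, the glutamate synthase (-0.68). In lanes 6 and 7, GLT1 in hybrid A (0.03) and ARO2 in hybrid B (0.04) lay slightly on the SK1 side. In lanes 6 and 7 alone 10 members were called and in lane 8 alone 15, and the 8 genes called in both were ARO8, ASN1, BAT1, ILV6 and ILV3 with S96 higher and ARO3, HIS5 and HOM3 with SK1 higher. Of the 48 members not called, 27 had a ratio on the S96 side and 21 on the SK1 side.

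Many amino acid synthesis genes are known targets of Gcn4, the activator of the general amino acid control, which binds the sequence TGACTC. This motif was searched on both strands in the 300 bases before the coding start and was found in 397 of 4909 tested coding genes (8.09%), in 39 of the 67 amino acid genes (58.2%) and in 10 of the 19 called ones. A listed SNP fell inside the motif in 12 tested coding genes, of which 1 was called, YOL159C, a gene of unknown function (-1.65). In the windows above, HIS5 holds the motif from base 131 to base 126 before the transcript start and ASN1 from base 90 to base 85, neither with a listed SNP inside it. GCN4 itself had 8865 and 9628 read pairs in hybrid A and 9567 and 9606 in hybrid B and was not called (-0.06).

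Proteins and enzymes of the cell wall had 11 of 49 members called (22.4%), all with S96 higher. The wall is a layer of glucan, chitin and mannoproteins, and the called genes act at each of these. CRH1, an enzyme that links chitin to glucan, had 315 SK1 and 10605 S96 read pairs in hybrid A and 397 and 11928 in hybrid B (log2 -4.99 ± 0.15 SE, adjusted p = 1.20e-16). KRE6, needed to make beta-1,6-glucan, had 166 and 2942 in hybrid A and 450 and 3197 in hybrid B, a ratio of -3.47. TIP1, a major mannoprotein, had 177 and 2633 and then 138 and 3531, a ratio of -4.28. In all 3 genes the lowest S96 count was several times the highest SK1 count. SED1, an abundant stress-induced wall protein, had 14355 and 24272 and then 16518 and 25701 (-0.70). UTR2, another chitin transglycosylase, was at -0.75, TIR3, a mannoprotein, at -1.91 and AGA1, the anchor subunit of a-agglutinin, at -1.65.

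ZEO1, counted in the list, encodes a peripheral protein of the plasma membrane and stood at -3.15. FIG2, an adhesin of mating cells, was called at -1.44 from unequal hybrids, with 78 and 535 read pairs in hybrid A but 633 and 718 in hybrid B. The direction did not extend over the list. Of the 38 members not called, 21 had a ratio on the SK1 side and 17 on the S96 side. The 2 wall protein genes named here with the highest read counts differed by less than 1.5-fold in opposite directions. CWP2 stood at -0.48 with S96 higher and CCW12 at 0.31 with SK1 higher. Lanes 6 and 7 alone called 6 members and lane 8 alone 12, S96 higher in each, and CRH1, TIP1, KRE6, TIR3, AGA1 and SED1 were called in both. With the spore pools in the fit 12 members were called, 1 of them with SK1 higher. Calls with SK1 higher also appeared in each fit that left 1 hybrid out.

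Iron and copper uptake had 6 of 30 members called. FET3, the multicopper oxidase of high-affinity iron uptake, had 4513 and 9990 read pairs in hybrid A and 4262 and 9457 in hybrid B (log2 -1.15 ± 0.11 SE, adjusted p = 1.74e-07). FIT2 and FIT3, wall mannoproteins that hold iron siderophores, are neighbours on chromosome XV and stood at -2.15 and -1.98. FET3, FIT2 and FIT3 were called in both lane fits. FET4, a low-affinity iron transporter, was at -1.27, and AFT2, an iron-responsive activator, had 1233 and 2472 in hybrid A and 1256 and 2484 in hybrid B (-0.99). FET5, a vacuolar multicopper oxidase, had SK1 higher in both hybrids, with 2507 and 1206 and then 2231 and 1111 (1.03). The count depended on the lanes, with 9 members called in lanes 6 and 7 and 3 in lane 8. FET4 is overlapped on the other strand by the non-coding SUT322, which was called in the same direction (-1.53).

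Sulfur assimilation and methionine synthesis had 5 of 38 members called (13.2%), all with S96 higher, a share near the background. The 33 members not called had 19 ratios on the S96 side and 14 on the SK1 side, and SK1-higher calls appeared in other fits, 1 in lane 8 alone, 1 with the spore pools and 2 without hybrid A. CYS4, the cystathionine beta-synthase that opens the route from homocysteine to cysteine, had 23603 and 44816 read pairs in hybrid A and 30833 and 56785 in hybrid B (log2 -0.90 ± 0.06 SE, adjusted p = 9.61e-11). MMP1, a permease of S-methylmethionine, and MHT1, the methyltransferase that uses it, are neighbours on chromosome XII and stood at -1.87 and -1.08. MET7, a folylpolyglutamate synthetase, stood at -0.91. Among permeases of amino acids, LYP1, the lysine permease, had 5385 and 10171 in hybrid A and 5688 and 10572 in hybrid B (-0.91). Of the sodium, arsenic and drug efflux genes 6 of 24 were called (25.0%), 3 in each direction, with SSU1, a sulfite pump, at -1.94 and the transporters YOR1 at 0.93, QDR2 at 0.93 and QDR1 at 1.36.

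The transcription machinery list, of RNA polymerases and Mediator, had 9 of 54 members called (16.7%), 5 with S96 higher and 4 with SK1 higher. RPO21, the largest subunit of RNA polymerase II, had 2222 and 11738 read pairs in hybrid A and 2862 and 14161 in hybrid B (log2 -2.35 ± 0.11 SE, adjusted p = 1.18e-12). RPC11, a subunit of RNA polymerase III, was at -0.79, and the Mediator subunits PGD1 and MED11 were at -1.03 and -0.83. RPO21 and RPC11 were called in both lane fits.

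The list of Ty elements and telomere helicases had 6 of 20 members called, 4 with S96 higher and 2 with SK1 higher, and 6 were called in lane 8 alone. The 6 called with all lanes were Ty element ends, the repeats left by retrotransposons. In lanes 6 and 7 alone edgeR called 0 of 17, with 2 at an unadjusted p under 0.05, and no other tool was run on those lanes. YGRCdelta20 had 8 SK1 and 729 S96 read pairs in hybrid A and 28 and 526 in hybrid B (-5.25), and YGRWdelta26 had 596 and 16 and then 550 and 0 (6.63). These repeats have near copies elsewhere in the genome, so their ratios are uncertain. Of 13 flocculin and filamentous growth genes 3 were called, the flocculin FLO10 at -1.99, the signalling mucin MSB2 at -2.35 and the repressor NRG1 at 1.48. Of 13 genes of daughter cell separation 3 were called, ASH1 at -0.93 and the wall proteins SCW11 at 0.88 and PRY3 at 0.92.

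Among larger lists, several stood near or below the background. In glycolysis and fermentation 4 of 38 members were called (10.5%), among them GPM1, the phosphoglycerate mutase (-1.46), and PFK2, a subunit of phosphofructokinase (1.15). Autophagy had 3 of 38, and all had SK1 higher, the sterol glucosyltransferase ATG26 at 0.87, ATG8 at 0.95 and ATG12 at 0.64, of which ATG26 was called in both lane fits. Only 1 of the 3 kept its direction in all 4 lane sets. The 35 autophagy members not called had 19 ratios on the S96 side and 16 on the SK1 side. Ribosome biogenesis had 6 of 111 (5.41%), with the helicase HAS1 at -3.21, LCP5 at -1.22, EBP2 at 1.31 and TSR1 at 0.82, but lanes 6 and 7 alone called 12. The secretory pathway had 4 of 88 (4.55%), with SLY1 at 0.78 and TRS20 at 1.02. Among the 47 genes of the nuclear pore and among 44 cyclin and cell cycle genes, edgeR called 0. At an unadjusted p under 0.05 there were 5 and 1 of them, and DESeq2 and limma also called 0 in both lists. Fits on part of the data did call some, 2 nuclear pore genes and 1 cyclin list gene in lanes 6 and 7, 1 and 0 in lane 8, 3 and 4 without hybrid A and 1 and 2 without hybrid B. The median absolute ratios of these lists were 0.13 and 0.19.

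Single genes of known roles in other processes were also called. MEH1, a subunit of the EGO complex that tethers TORC1 to the vacuole, had 930 SK1 and 6 S96 read pairs in hybrid A and 907 and 0 in hybrid B (8.31). HAP5, a subunit of the CCAAT-binding activator of respiration, had 844 and 144 and then 1354 and 341 (2.27). ASH1, the repressor that daughter cells inherit, had 1465 and 2910 and then 1706 and 3098 (-0.93), and MYO4, the myosin that carries ASH1 RNA to the bud, stood at -1.08. MKT1, a putative nuclease bound to Pbp1, had 3209 and 10464 and then 3941 and 9402 (-1.48).

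Genes of the cytosolic ribosome were called more often in the large subunit list, 14 of 79 (17.7%) with SK1 higher in 10, than in the small subunit list, 7 of 52 (13.5%) with SK1 higher in 4. No test of that difference was made. RPP1, counted among the 14, encodes a subunit of RNase P and is no ribosomal protein. RPL27B had 38398 SK1 and 1327 S96 read pairs in hybrid A and 35736 and 1715 in hybrid B (log2 4.62 ± 0.11 SE, adjusted p = 1.77e-18). RPL39 had 46287 and 12829 in hybrid A and 48176 and 13654 in hybrid B, a ratio of 1.84, and RPL32 had 8687 and 869 and then 8820 and 754, a ratio of 3.43. RPL32 and RPL39 are single-copy genes with no listed SNP in their coding sequence, and SK1 was higher in all 4 of their lane sets. Genes called in both lane fits were RPL32, RPL13A, RPL27B, RPL14B, RPL39 and RPL18B with SK1 higher and RPL43B, RPL1A, RPL11A and RPS18A with S96 higher. The unit annotated as RPS8A with YBL071C-B, a joined annotation outside the coding, SUT and CUT classes, had 111407 and 630 read pairs in hybrid A and 95087 and 281 in hybrid B (7.91).

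Most yeast ribosomal protein genes have a near-identical duplicate, and counting of allele-specific reads can split or misplace reads between such copies, so these ratios are uncertain. RPL11A had 91 SK1 and 18166 S96 read pairs in hybrid A and 167 and 15721 in hybrid B (-7.06), while RPL11B, with a coding sequence 97.0% identical, had 85424 and 76683 and then 81514 and 74367 (0.14). RPL43B, called at -4.27, had 151 and 1972 and then 55 and 1631, while RPL43A had 219512 and 205469 and then 229730 and 218004 (0.09). Of the 17 called ribosomal genes with a tested duplicate, 12 had fewer reads than their duplicate. RPL27B had more allele-specific read pairs than its duplicate RPL27A, which had only 661 and 415 in hybrid A and 617 and 710 in hybrid B. Pairs that match both alleles are not counted, so these counts do not rank the copies by RNA level.

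The EF-1 alpha genes TEF1 and TEF2 are 99.9% identical. TEF2, the copy with more allele-specific read pairs, had 114437 SK1 and 115467 S96 pairs in hybrid A and 134381 and 133440 in hybrid B. It was not called (-0.0014). EFT2, one of 2 genes of the elongation factor EF-2, was called at -0.76, and its duplicate EFT1, 99.8% identical, stood at 0.29 and was not called. Over all 776 tested coding genes with a tested duplicate, 100 were called (12.9%), and among the 39 whose duplicate was at least 95% identical, 11 were called (28.2%). The share was 11.2% of 89 between 80 and 95% identity and 12.2% of 648 below 80%. How far placement of reads between copies contributes was not tested.

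The share of transcripts called was highest near chromosome ends. Within 10 kb of an end 12 of 35 tested transcripts were called (34.3%), and between 10 and 30 kb 38 of 226 (16.8%). Between 30 and 100 kb 152 of 1233 (12.3%) and farther inside 530 of 5115 (10.4%) were called. In lanes 6 and 7 alone, 5 of 28 were called within 10 kb, and in lane 8 alone 8 of 29. Of the 12 within 10 kb, S96 was higher in 6 and SK1 in 6. The median absolute ratio of all transcripts within 10 kb was 1.33, against 0.32 beyond 100 kb. Depth differed too, with a median of 133 read pairs per allele and library within 10 kb and 997 beyond 100 kb. Over all tested transcripts the median absolute ratio was 0.73 in the tercile of lowest mean count and 0.19 in the highest. How far depth contributes near the ends was not tested.

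**Figure D4:**
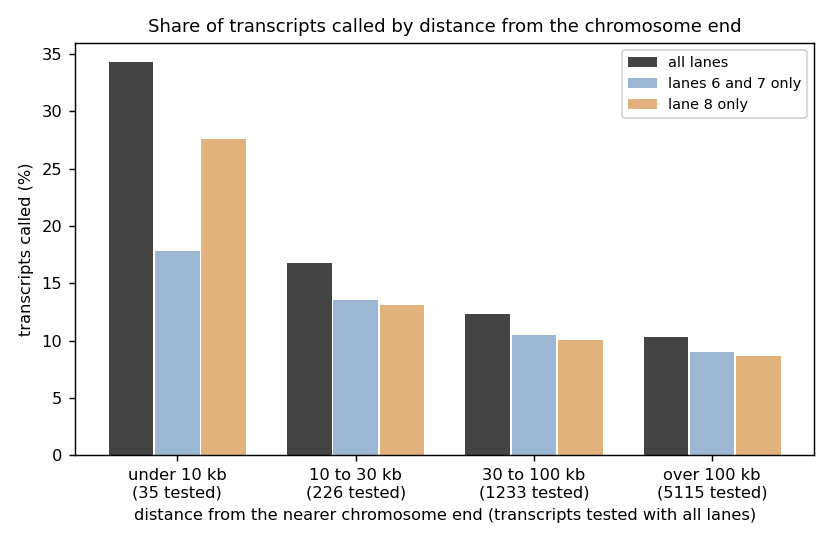
Bars give the percentage of tested transcripts called by distance from the nearer chromosome end, for all lanes, for lanes 6 and 7 and for lane 8. With all lanes the share is 34.3% within 10 kb and 10.4% beyond 100 kb, and both sets of lanes have their highest bar within 10 kb.

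MAL33, the activator of the maltose locus at the right end of chromosome II, had 3380 SK1 and 224 S96 read pairs in hybrid A and 4534 and 248 in hybrid B (log2 4.05 ± 0.23 SE, adjusted p = 1.38e-11). Its neighbour MAL31, the maltose permease, was called the other way with 178 and 502 and then 172 and 375 (-1.31). PKC1, the kinase of the cell wall integrity pathway, lies 14.1 kb from the left end of the same chromosome and had 2102 and 804 and then 1998 and 945 (1.23). AIF1, a mitochondrial cell death effector 5.13 kb from the end of chromosome XIV, had 1328 and 498 and then 944 and 102 (2.29). HPF1, a mannoprotein gene on the left arm of chromosome XV, had 53 and 2021 and then 379 and 2079 (-3.74). Either allele was thus the higher one near ends, and MAL33, PKC1, AIF1 and HPF1 were called in both lane fits. MAL13 and MAL11, a maltose activator and a maltose permease on chromosome VII, had reads of the S96 allele only. How far reads were placed between the maltose genes of the 2 chromosomes was not tested.

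Calls were spread over all 16 chromosomes, from 8.51% on chromosome XI to 15.4% on chromosome VI. S96 was higher in all 7 calls on chromosome I and in 24 of 31 on chromosome VIII, while chromosome XII had 30 with SK1 higher and 26 with S96 higher. Coding transcripts were called in 10.9%, stable unannotated transcripts (SUTs) in 11.4% and cryptic unstable transcripts (CUTs) in 8.31%. The remaining class, which holds joined annotations, repeats and small RNA genes among others, had the highest share, 52 of 274. Coding genes without any listed SNP in their coding sequence were called in 18.6% of 253, and those with 10 or more SNPs per kb in 18.2% of 346, against 9.57% of 1955 with 3 to 6 per kb.

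Runs of 3 or more neighbouring tested transcripts all called in one direction occurred 12 times. The longest covered 5 transcripts between 928707 and 939039 on chromosome XVI, all with S96 higher. It holds SUT430, with 1 SK1 and 557 S96 read pairs in hybrid A and 0 and 403 in hybrid B, then the unit of YPR196W, a gene similar to maltose activators, with 5 and 445 and then 3 and 575. Next come SGE1, a multidrug transporter, with 1 and 195 and then 1 and 210, SUT847, with 0 and 298 and then 1 and 102, and ARR1, the activator of arsenic resistance, with 6 and 895 and then 69 and 619. ARR2, the arsenate reductase, and ARR3, the arsenite exporter, follow towards the end and had reads of the S96 allele only. They had 210 and 300 read pairs for ARR2 and 198 and 63 for ARR3 in hybrids A and B. Every transcript with reads from SUT430 to ARR3 thus had few or 0 reads of the SK1 allele. On the centromere side, SUT429 had 3 SK1 and 69 S96 read pairs in hybrid A and 16 and 153 in hybrid B, and YPR195C had 7 and 75 and then 3 and 32, and neither was called (-3.81 and -3.38). OPT2, an oligopeptide transporter beyond both, was called with SK1 higher, at 1009 and 240 and then 717 and 306 (1.65).

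**Figure D5:**
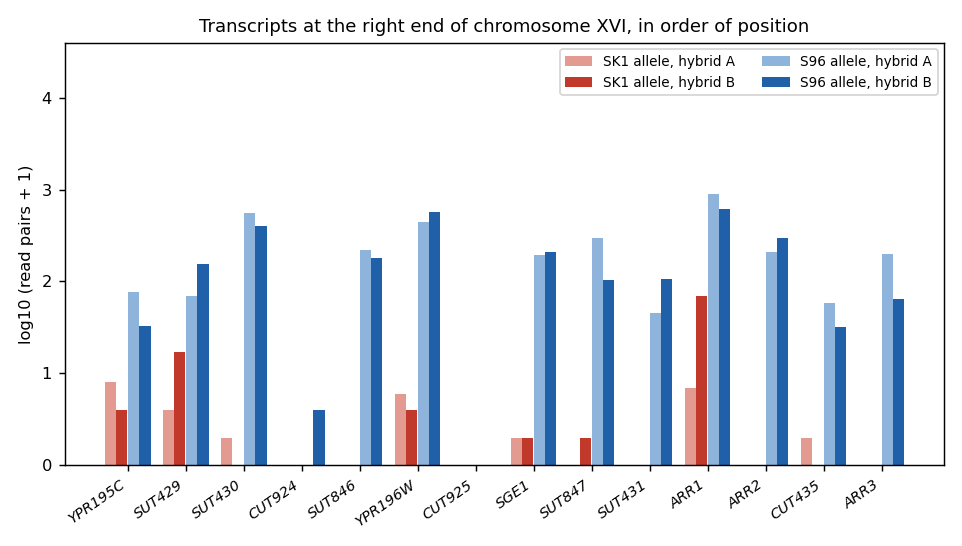
Bars give the log10 of read pairs plus 1 for the SK1 allele in red and the S96 allele in blue, light for hybrid A and dark for hybrid B, at the annotated transcripts near the right end of chromosome XVI in order of position. From SUT430 to ARR3 the S96 bars stand above the SK1 bars at each transcript with reads, with 557 against 1 read pair at SUT430 and 210 against 0 at ARR2 in hybrid A.

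A run of 4 transcripts with SK1 higher lay on chromosome IX between 132193 and 136325. It holds the multidrug transporter genes QDR2 (0.93) and QDR1 (1.36) with SUT606 (1.18) and CUT661 (2.57), and all 4 kept SK1 higher in all 4 lane sets. On chromosome VII KEX1, a protease of the secretory route, ARO8 and MCM6, a subunit of the replicative helicase, formed a run with S96 higher, at -3.08, -1.78 and -1.13. On chromosome XIII ERG29, GID8 and GAT2 formed a run with SK1 higher, at 0.90, 0.60 and 0.70, and on the same chromosome TVP18, ABF2, which packages mitochondrial DNA, and IRC21 formed one with S96 higher, at -0.75, -2.07 and -1.98. Where both of 2 neighbours were called, they had the same direction in 21 of 29 divergent pairs, 19 of 27 tandem pairs, 8 of 11 convergent pairs and 38 of 47 pairs overlapping on opposite strands, but in 1 of 4 pairs overlapping on the same strand.

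Reads of 1 allele only were found in 230 transcripts, which were not tested, 121 with S96 only and 109 with SK1 only. Where such a transcript had a mean of at least 100 read pairs per hybrid, the allele was S96 in 10 of 11. The transcripts are those of the S96 annotation with their SK1 orthologues, so a gene that only SK1 carries cannot appear here. The set is thus not even between the parents. YJL217W, a gene of the left arm of chromosome X, had 1283 and 1652 S96 read pairs and 0 of SK1, at least 978-fold higher against a floor of 3 read pairs over both hybrids. MAL11, a maltose permease, and MAL13, its activator, on chromosome VII had 291 and 391 S96 read pairs over both hybrids, at least 97.0-fold and 130-fold higher. ARR2 had 510, at least 170-fold higher, and ARR3 had 261, at least 87.0-fold higher. This floor allows for counting error alone, because PCR copies are not separate molecules.

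Genomic DNA of the same 2 hybrids gave a partial check on unequal allele number, as counts of reads at SNPs in 2 columns, which the files do not assign to an allele. A stretch that 1 parent lacks holds no SNP, so this check cannot show it. The 230 transcripts with reads of 1 allele only were not among those checked. The first column held 52.1% of reads in hybrid A and 51.9% in hybrid B. Over transcripts with at least 100 DNA reads in each hybrid, its median share was 51.5% for transcripts not called, 52.0% for those with SK1 higher and 51.9% for those with S96 higher. Of the 732 called transcripts, 606 had this depth. Of these 606, 501 had shares between 40 and 60% in both hybrids, 182 with SK1 higher and 319 with S96 higher. Called transcripts were 10.3% of all 4848 transcripts within these limits. Among transcripts with this depth, the mismatch repair gene PMS1 alone was beyond 80% in both hybrids, with 490 reads against 1 and 638 against 0 in DNA. Its RNA had 38 SK1 and 1046 S96 read pairs in hybrid A and 20 and 1100 in hybrid B (-5.25). PMS1 is counted among the calls with S96 higher, although its DNA reads were not shared evenly between the columns. The reason was not tested.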

How the data were processed

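RNA of 2 cultures of the S96 x SK1 hybrid, A and B, was sequenced as strand-specific total RNA in 100-bp paired-end runs. As deposited, the RNA values are raw counts of read pairs per transcript, allele and lane. The authors aligned reads to the genomes of both parents jointly with GSNAP and counted them with HTSeq 0.5.4p5 on transcripts of the S96 annotation and their SK1 orthologues, each extended by 50 bp. Pairs that match both alleles equally well are left out by this counting, so transcripts with few differences are counted on few positions. The hybrid DNA values are counts of reads at SNPs, deposited by the authors in 2 columns of no stated allele.

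SK1 rows of the SK1-mapped columns were set against S96 rows of the S96-mapped columns, with lanes summed. Reads in crossed rows were 0. Read pairs without a feature (35.8% in hybrid A and 28.5% in hybrid B) were left out. TMM size factors on both alleles together were 0.968 and 1.03. edgeR 4.0.16 in R 4.3.3 was fitted by quasi-likelihood over the 4 allele columns with the culture as a block, in place of the DESeq2 model of the study's methods, and p-values were adjusted over all 6609 transcripts. The labels pair the allele columns, since both alleles of a library come from 1 culture. The steps were tested on simulated data. Ratios of 1 library add 0.5 to each count. Depth limits precision, with a median standard error of 0.30 on the log2 scale.

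Alternatives were other size factors, DESeq2 1.42.0, limma 3.58.1, other limits, no block, the spore pools in the fit, and each hybrid left out. Fits of lanes 6 and 7, of lane 8 and of 4 lane sets were chosen after seeing the data. The gene lists and the transcripts compared were chosen with earlier results of these data known. Genes were named by a rule. It took the 12 largest called ratios of coding transcripts in each direction. These needed at least 100 read pairs per column, 20 of the lower allele and each hybrid beyond 1.5-fold. Up to 4 called members per list, members of runs and the 10 called coding transcripts of highest mean count were added. So were the 3 largest non-coding ratios in each direction and 5 transcripts whose hybrids differed most. Coding transcripts of 1 allele with at least 100 read pairs per hybrid completed the rule. Further members of lists, duplicates and genes near chromosome ends, and the promoters printed, were chosen after their values were seen. Promoters and coding SNPs were read from NCBI's R64 assembly, on which 88.6% of coding transcripts contain their coding sequence, but only 29.7% on chromosome XI, from which no sequence was read.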

Additional observations from a re-analysis of the deposited data

How the results depend on the processing

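The rule for calls fixes their direction when a hybrid is left out or a limit is changed, so only fits on other reads bear on it. Of the 711 calls tested in lanes 6 and 7 alone 697 kept their direction, and 720 of the 721 tested in lane 8 alone did, with reads that the main fit also holds. The number called stayed within 1.5 times of 732 under most settings, from 536 with no replicate block to 808 with limma. At a false discovery rate of 0.05, 459 were called (166 with SK1 higher and 293 with S96 higher), with no fold limit 1176 (508 and 668) and with a fold above 2, 444 (173 and 271). With 1 hybrid left out, 563 to 701 were called, 236 to 288 with SK1 higher and 327 to 413 with S96 higher. These fits took the spread from the spore pools, so the lone hybrid is assumed to vary as they do, and they shared 485 (without A) and 422 (without B) of the 732 calls. Without the block of the culture that pairs the alleles, 205 of the 536 calls had SK1 higher and 331 had S96 higher, and 534 of them were also called with it. Among single genes, BNA4 (0.057), SMT3 (0.18) and ALD2 (-0.59) changed sign in lanes 6 and 7 alone, and YOX1 (1.37 without hybrid A, -1.75 without hybrid B) and DPB2 (-1.52 and 1.77) pointed opposite ways in the hybrids. The causes were not tested. Of 193 named transcripts, 78 were called in all 8 alternative fits run for them. With 2 cultures, ratios near the median standard error of 0.30 were not detectable for a transcript of median precision. A call also needs a fold above 1.5, so the limit of detection lies above that standard error, and it was not determined.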

Other observations

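In a few well covered transcripts the hybrids disagreed on the higher allele. YOX1, a repressor of cell cycle genes, had 266 SK1 and 892 S96 read pairs in hybrid A but 1028 and 397 in hybrid B. DPB2, a subunit of DNA polymerase epsilon, had 758 and 222 in hybrid A and 382 and 1094 in hybrid B. VPS36, of the ESCRT-II complex, had 122 and 769 and then 675 and 482. None of the 3 was called, and the cause of the disagreement was not tested. These genes were taken because their ratios differed most between the hybrids, so the difference is a description.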
